A study of Mus musculus with 2 samples.

Results

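The Kcnq1-Cdkn1c imprinted locus on distal mouse chromosome 7 was described here by where the DNA-binding protein CTCF was bound along it in newborn kidney. Its 6 members were the listed genes Kcnq1, Kcnq1ot1, Cdkn1c, Phlda2, Slc22a18 and Nap1l4, and its peaks were those of the deposited optimal list with the summit inside chr7:143056362-143511050 (mm10). That window of 454.689 kb held 22 of the 65482 peaks of the optimal list, which is the longer of the submitters' pair of lists thresholded by IDR (the irreproducible discovery rate, a measure of how well peak ranks repeat). A peak of that list need not be present in both libraries. The study was 1 group of 2 CTCF ChIP-seq libraries (chromatin immunoprecipitation followed by sequencing) from kidney tissue of B6NCrl mice at postnatal day 0, with no genetic change, treatment or second tissue to compare. The libraries were labelled biological replicates 1 and 2 but carried the same biosample and donor identifiers, so their spread may be technical, and the labels say that sex was not recorded. Since the peak lists hold no read counts, the depth behind each value is unknown, and no interval or test of a difference could be made from them. In bulk tissue a peak in few cells and a weaker one in many cannot be told apart, and neither can the parental copies. Nap1l4 lies wholly to the right of the window, so its peaks were placed separately.

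Genomic imprinting leaves a gene active on the copy from one parent and silent on the copy from the other. In this domain the promoter of Kcnq1ot1, a long non-coding RNA transcribed antisense to Kcnq1 from within one of its introns, is the imprinting control region: it is methylated on the maternal copy, and on the paternal copy the RNA is made and silences neighbouring genes in cis. CTCF is a zinc-finger protein that recognises a long, non-palindromic motif, insulates enhancers from promoters and holds the anchors of chromatin loops, and binding to the Kcnq1ot1 control region has been described in mouse cells.

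The sequences under the summits are given first, since the strand and letters of the CTCF motif show how each peak is oriented. A matrix of 19 bp was learned from optimal peaks of even-numbered chromosomes, so chromosome 7 took no part in it. Its consensus was NNNCCACNAGGGGGCNCNN, and both strands within 100 bp of each summit were searched at a score passed by 1 in 10000 positions of control windows 2000 bp away. Of the 22 window peaks, 21 held a match, against 78.6% of optimal peaks on odd-numbered chromosomes and 4.74% of their control windows. Matches of peaks that the results turn on follow, numbered 1 to 22 from left to right along the chromosome, each read 5′ to 3′ on its own strand of mm10 with the match in capitals and 5 flanking bases in lower case.
Peak 4, Trpm5 promoter, chr7:143094906-143094924, forward strand: aacatTAGCCACCAGAGGGCGCCAagatc
Peak 6, Kcnq1 promoter, chr7:143107245-143107263, reverse strand: cagccCAGCCACGGGGGGCCGCTGtctgc
Peak 11, Kcnq1 intron 1, chr7:143138984-143139002, reverse strand: ccatgCTGACAGCAGAGGGCACCAgtgag
Peak 16, nearest to Cdkn1c, chr7:143464076-143464094, reverse strand: caagtCGGCCACCAGGGGGCAGCAtgaag
Peak 17, highest of the window, chr7:143466494-143466512, reverse strand: gtctcTGACCACCAGGGGGCAGAAtgact
Peak 18, upstream of Slc22a18, chr7:143470156-143470174, reverse strand: gacctTGGCCAGCAGGCGGCGCCCaggtc
Peak 19, nearest to a Slc22a18 start, chr7:143476870-143476888, forward strand: gggttGGCCCACAAGGTGGCAGCAtctaa
Peak 20, Slc22a18 intron, chr7:143480697-143480715, forward strand: agggaGTTCCACCAGGGGGCGCTAcagtg
Peak 21, nearest to Phlda2, chr7:143506047-143506065, reverse strand: cgaggAGGCCGGAAGAGGGTGCTAgatct
Peak 22, upstream of Phlda2, chr7:143506911-143506929, reverse strand: tatggAGGCCAGAAGAGGGCATCCaatcc

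The motif scores, as log2 likelihood ratios against equal base frequencies, ran highest at peak 16 (22.3), peak 4 (22.3) and peak 17 (21.2). Peak 6 at the Kcnq1 promoter scored 10.6, just above the search threshold of 10.2. Of the 21 matches, 9 lay on the forward strand and 12 on the reverse strand, and 50.1% of matches on odd-numbered chromosomes were forward. A CpG, the dinucleotide that carries most DNA methylation in mammals, stood inside 9 of the 21 matches, against 37.2% of matches on odd-numbered chromosomes. Summits in soft-masked sequence, which is the part of the assembly marked as repeats, numbered 3 (peaks 10, 21 and 22), against 22.0% of all optimal peaks.

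The peaks fell into a pair of clusters with a long empty stretch between them. The left cluster of 14 peaks spanned 80.7 kb from Trpm5 into the second intron of Kcnq1, and the right cluster of 8 spanned 61.0 kb from beyond the 3′ end of Kcnq1 to the upstream side of Phlda2. Between peaks 14 and 15 no optimal summit was listed over 291.914 kb, a stretch that held 85.1% of the Kcnq1 body and all of Kcnq1ot1. The window as a whole was nonetheless peak-rich, with 4.84 optimal peaks per 100 kb against 2.56 per 100 kb of known sequence on chromosomes 1 to 19 and X.

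**Figure D1:**
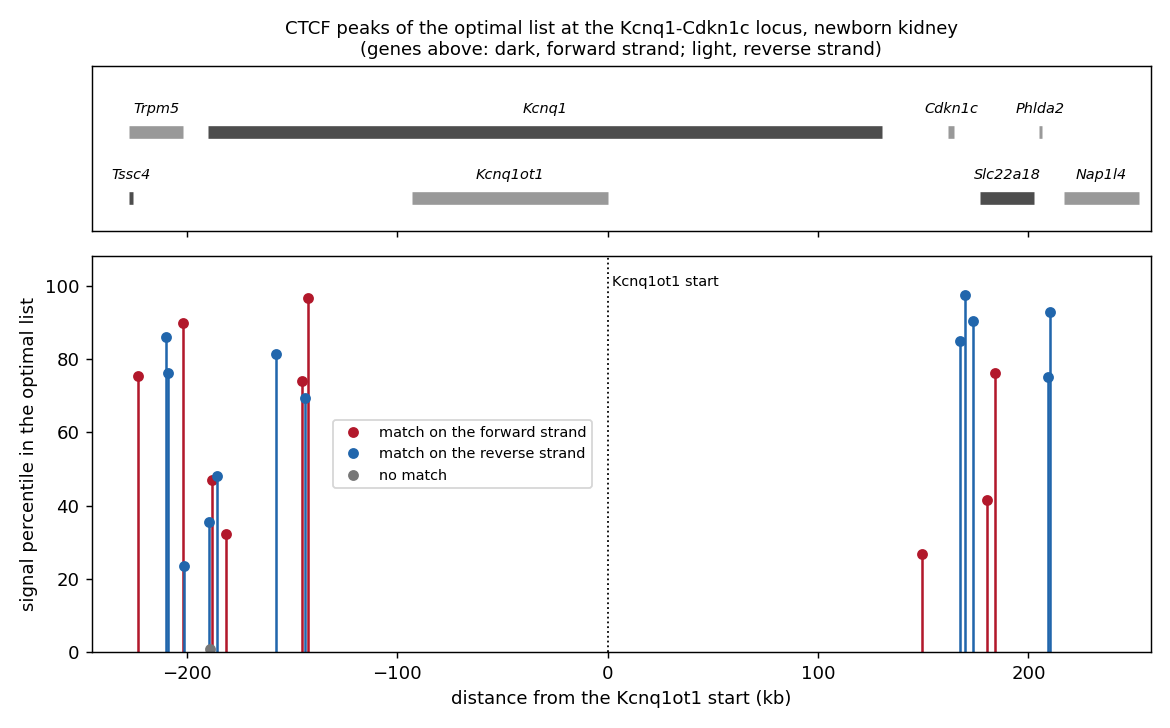
Optimal CTCF peaks of the window, placed by distance from the Kcnq1ot1 start (x axis, kb) and by the percentile of their signal among all optimal peaks (y axis), with the strand of the motif match in colour and gene bodies above. The left cluster of 14 peaks and the right cluster of 8 are separated by 291.914 kb that contain the Kcnq1ot1 start.

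Signal, the peak height measure that the submitters' caller gave to each peak, is printed here as a percentile among all optimal peaks, so that 50 is the middle of the list. The 22 window peaks had a median percentile of 75.2, with a range of 0.968 to 97.6, and 14 of them lay in the upper 50% of the list. The right cluster had the higher median, 80.5, against 71.7 in the left cluster. Within the left cluster the 5 peaks on the Trpm5 side had a median of 76.3 and the 9 in the Kcnq1 body one of 48.0. The median of 75.2 was not stable to the choice of library: with percentiles taken within one library's highest 65482 peaks, it was 54.7 over the 30 window peaks of replicate 2 and 74.2 over the 23 of replicate 1.

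Each library's own list held 300000 peaks ranked by signal, far more than the optimal list, and its upper set was taken as the highest 65482, as many as the optimal list has. By overlap with those lists, 21 of the 22 window peaks were in the upper set of both libraries, against 78.6% of all optimal peaks. The exception was peak 5, which had rank 33927 in replicate 1 and no overlapping peak in replicate 2. The stricter conservative list of 59444 peaks overlapped 21 of the 22 window peaks, again all but peak 5, against 84.2% of all optimal peaks.

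Ranks in the libraries followed each other at most of these peaks. Over the 21 window peaks matched in both, the Spearman correlation of the ranks was 0.895, against 0.911 over 63805 matched optimal peaks, and the median fold between the ranks was 1.16 in the window against 1.26. These correlations describe peaks that share the same pair of libraries. Peak 14 stood apart: it ranked 6986 in replicate 1 and 729 in replicate 2, a fold of 9.58, and 0.31% of all matched optimal peaks differed by that much. That share is over peaks of all ranks, and peak 14 was not set against peaks of similar rank. Replicate 2 listed a further peak 210 bp from it, at rank 25465, with its summit inside no peak of replicate 1.

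**Figure D2:**
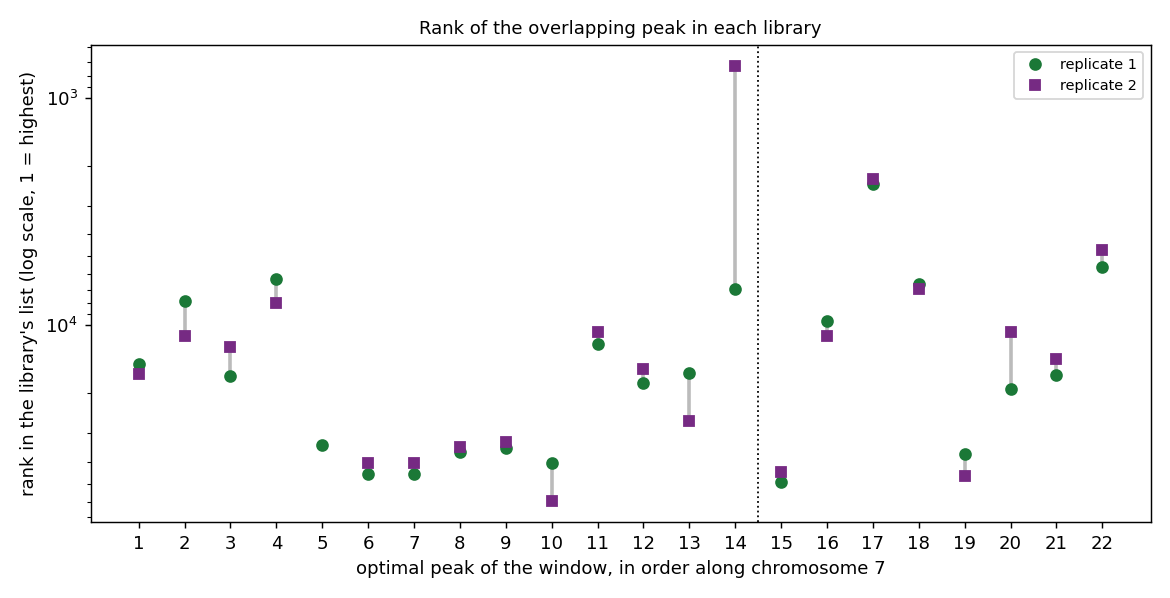
Rank of the overlapping peak in replicate 1 (circles) and replicate 2 (squares) for the 22 optimal peaks of the window in chromosome order, on a log axis with rank 1 at the top, and with the dotted line marking the empty stretch. Peak 14 has the widest separation, at 6986 and 729, and peak 5 has no square.

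Kcnq1 encodes the pore-forming subunit of a voltage-gated potassium channel that works in heart, inner ear and epithelia. Its body, chr7:143106362-143427042 on the forward strand, held 9 optimal summits, all of them between its 5′ end and intron 2. Peak 6, at summit 143107250, lay 4 bp upstream of the annotated start of a Kcnq1 transcript with 16 exons and had percentile 35.5, with rank 45202 in replicate 1 and 40686 in replicate 2. It was the promoter peak nearest to a Kcnq1 start, and it was of moderate height in both libraries.

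Peak 7, in the first coding exon 206 bp from peak 6, was the lowest of the window at percentile 0.968 and the single one without a motif match. No replicate 1 summit lay within 100 bp of it, while replicate 2 had one at rank 62419, and the rank it takes by overlap is that of peak 6. Peaks 8 and 9 followed at percentiles 47.0 and 48.0, ranking 36348 and 34858 in replicate 1 and 34580 and 32802 in replicate 2. Peak 10, in soft-masked sequence of intron 1, had percentile 32.2 and ranks of 40807 in replicate 1 and 59391 in replicate 2. All 5 peaks nearest the Kcnq1 promoter therefore lay in the lower 50% of the optimal list.

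The peaks farther into the gene were higher. Peak 11, in intron 1 and also within an intron of the antisense transcript Gm28821, had percentile 81.3, with ranks of 12122 in replicate 1 and 10727 in replicate 2. Peaks 12, 13 and 14 followed in intron 2, spaced 1121 bp and 1518 bp apart, at percentiles 74.1, 69.3 and 96.8. In replicate 1 peak 12 had rank 18089 and peak 13 rank 16336, and in replicate 2 the pair had ranks 15727 and 26470. Of these 3, peak 14 was the highest, and it was the last peak before the empty stretch.

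Replicate 2 alone placed 14 peaks of the Kcnq1 body in its upper set and replicate 1 alone 10, against the 9 of the optimal list. One Kcnq1 intron peak at 143142527 ranked 40441 in replicate 1 and 85304 in replicate 2 and was in neither the optimal nor the conservative list. Its ranks fell on both sides of the upper set's limit.

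Kcnq1ot1, chr7:143203458-143296549 on the reverse strand, starts in intron 11 of that Kcnq1 transcript and ends in intron 10 by its annotation. No optimal summit lay in its body or within 1 kb of its start, and 18.4% of the 9600 annotated long non-coding genes had one within 1 kb. The share of those genes with a summit in the body is not given here. The nearest optimal summits were peak 14, 142.540 kb downstream in the direction of Kcnq1ot1 transcription, and peak 15, 149.374 kb upstream. Of all long non-coding genes, 4.21% had their nearest summit at least as far from a start. The distance rested on the list used: in the conservative list the nearest summit was 80430 bp away, in the upper set of replicate 1 it was 142546 bp and in that of replicate 2 it was 13874 bp.

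The longer library lists did hold peaks at the start itself, at low ranks. In replicate 1 a summit lay 5 bp downstream of the Kcnq1ot1 start at rank 124432 of 300000, and in replicate 2 one lay 64 bp upstream at rank 79439. In the list called on both libraries pooled, a summit 4 bp downstream had rank 85499. Each of these ranks lay beyond the 65482 of the upper set, and the conservative list had no summit within 5 kb. The library and pooled lists each held 11.7 peaks per 100 kb over the genome. The share of other gene starts with a peak of such rank is not given here.

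The start is shown because it is the control region of the domain and the window there was searched for the motif. The sequence is RefSeq's, on GRCm38.p6, from 250 bases before RefSeq's start to 50 after it, with the transcribed bases in capitals.
Kcnq1ot1 promoter, chr7:143296498-143296797, reverse strand: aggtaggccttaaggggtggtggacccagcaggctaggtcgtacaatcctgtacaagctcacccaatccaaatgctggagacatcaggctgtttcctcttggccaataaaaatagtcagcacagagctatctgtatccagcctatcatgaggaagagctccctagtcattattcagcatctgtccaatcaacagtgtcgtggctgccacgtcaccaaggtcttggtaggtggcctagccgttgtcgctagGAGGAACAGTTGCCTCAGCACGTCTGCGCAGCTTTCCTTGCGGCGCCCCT
No match to the CTCF matrix was found in these 300 bases on either strand, and 11.2% of 17827 RefSeq promoters of the same length on odd-numbered chromosomes held one. Within 5 kb of the start there was 1 match, 2933 bp upstream, with a score of 10.3 and the capitals marking it.
Match nearest to the Kcnq1ot1 start, chr7:143299473-143299491, reverse strand: cccatGATCCGGAAGAGGGTGGTGtcaat
The absence of a match says only that these letters were not in the window. Around the start, 500 bp to each side, the observed CpG count was 0.448 of that expected from the base composition.

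Of 65450 distances between neighbouring optimal summits in the genome, 1.71% were at least as long as the 291.914 kb here. Distances of that length together made up 26.4% of all the sequence between the first and last summits of the chromosomes. The median distance was 14.2 kb and the next longest in the window was 25.3 kb. The stretch contained no unknown bases, and 18.2% of it was soft-masked. In the upper set of replicate 2 the longest distance in the window was 156204 bp, and in that of replicate 1 it was 291920 bp. In the conservative list it was 222970 bp, owing to a single peak at 143376979 in a Kcnq1 intron that ranked 55272 of 59444.

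The full library lists were not empty there. Replicate 1 listed 44 peaks in the stretch, which is 15.1 per 100 kb against 11.7 over its whole list, and replicate 2 listed 38, or 13.0 per 100 kb against 11.7. Their best ranks were 69132 in replicate 1 and 58168 in replicate 2. None of the 44 and 2 of the 38 were in the upper set. Both exceptions lay in Kcnq1 introns, at 143310423 and 143376922, and the second overlapped the conservative peak and ranked 70251 in replicate 1.

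**Figure D3:**
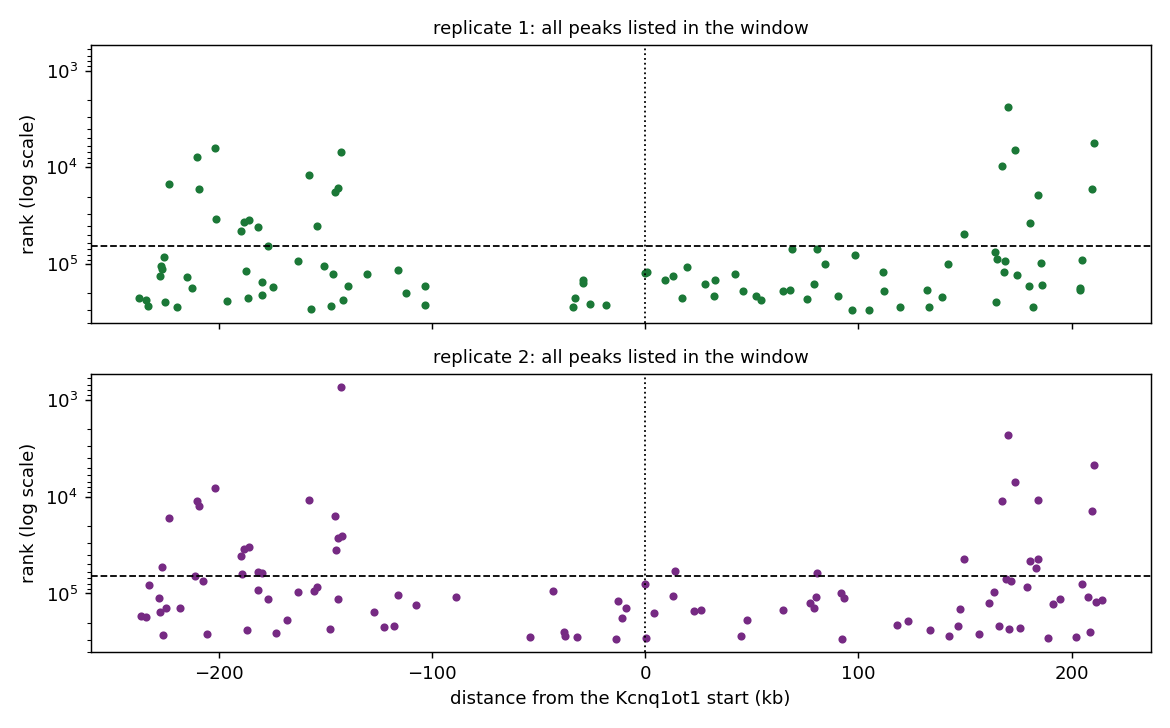
All peaks that replicate 1 (above) and replicate 2 (below) listed in the window, by distance from the Kcnq1ot1 start (x axis, kb) and rank on a log axis with the highest peaks at the top, the dashed line marking the upper set of 65482. Inside the empty stretch 44 peaks of replicate 1 and 38 of replicate 2 are listed, of which 0 and 2 are above the line.

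Motif matches were present along the empty stretch. Over the window's whole sequence the matrix matched 112 times, 22 of them within 100 bp of an optimal summit and 44 inside the stretch, of which 10 fell in the Kcnq1ot1 body. The median score was 11.4 in the stretch and 15.5 at the summits. At the stricter score, passed by 1 in 100000 control positions, 5 matches were left in the stretch and 16 at summits. The 5 were again not above the control rate. Of the 44, 10 lay in a peak interval of a library and 2 in an interval of both. The same share for matches over the genome was not taken, so these counts have no background.

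The genes of similar length show how the peaks of Kcnq1 were spread. Kcnq1 had 9 summits, or 2.81 per 100 kb, against a median of 6, or 2.03 per 100 kb, over the 383 protein-coding genes with a body of 250 to 400 kb. The 3 genes nearest to it in summits per 100 kb were St7 with 2.80, Faf1 with 2.78 and Adk with 2.78, counted over the same optimal list. The longest stretch without a summit took 85.1% of the body in Kcnq1, against 35.3% in St7, 22.3% in Faf1 and 38.1% in Adk.

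Of the 141 such genes with at least as many summits as Kcnq1, 1 gene, or 0.709%, had a longest peak-free stretch of at least that share, and it was Kcnq1 itself. The median of the 141 was 25.7% and the next highest was Slc4a4, a sodium bicarbonate cotransporter, at 64.7%. The size of that lead depended on the count used as the limit. Nyap2, with 8 summits, fell just below it but had more summits per 100 kb than Kcnq1, 3.02, and a share of 79.5%. With that gene admitted Kcnq1 would still be first. It would not be with genes of 5 summits admitted, as Btbd3, with 5, had a share of 88.0%. Over all 383 genes, 26 had a share at least as large as that of Kcnq1, Kcnq1 included, and the others of the 26 had fewer summits. In the conservative list the share in Kcnq1 was 69.5% and the next highest of 101 genes was Ltbp1 at 56.6%. In the upper set of replicate 2 alone the share in Kcnq1 was 48.7%, close to the 48.3% of Iqsec1 among 52 genes. In that of replicate 1 it was 85.1%, against 64.7% in Slc4a4 among 120 genes. This measure was chosen after its value had been seen and is given as a description.

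**Figure D4:**
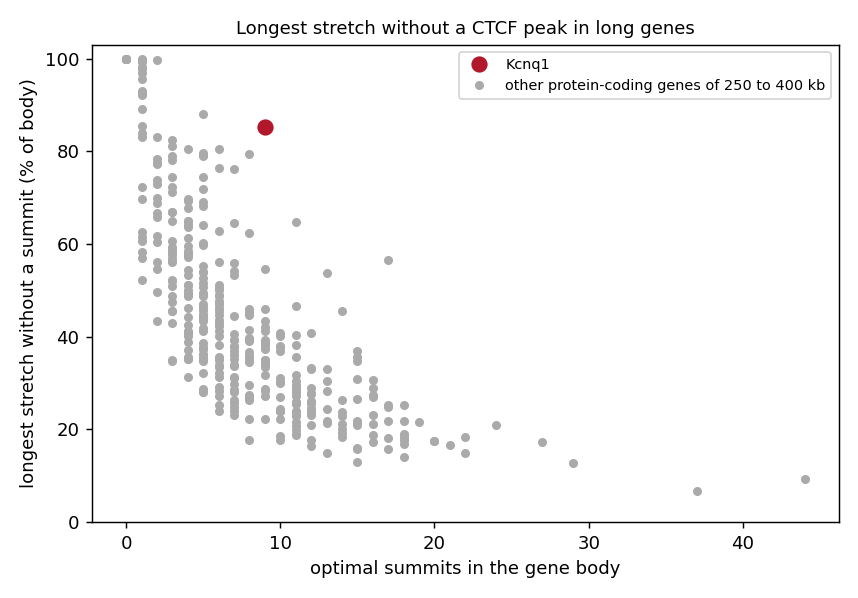
Longest stretch without an optimal summit as a percentage of the gene body (y axis) against the number of optimal summits in the body (x axis) for Kcnq1 (large red point) and the other protein-coding genes of 250 to 400 kb (grey). Kcnq1, with 9 summits, sits at 85.1%, and the highest other gene with at least 9 is at 64.7%. Nyap2, with 8 summits, is at 79.5%.

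Cdkn1c encodes a cyclin-dependent kinase inhibitor that restrains cell division, is expressed from the maternal copy and is needed in kidney development. Its body, chr7:143458339-143461050 on the reverse strand, held no optimal summit and none lay within 1 kb of its starts. The nearest, peak 16, lay 3029 bp upstream at percentile 84.8, with ranks of 9605 in replicate 1 and 11182 in replicate 2. Peak 17, 5451 bp upstream at summit 143466501, was the highest of the window at percentile 97.6. It ranked 2399 in replicate 1 and 2292 in replicate 2, a fold of 1.05 between libraries. Both matches were on the reverse strand, the strand of Cdkn1c.

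The whole interval of peak 17 is printed because it is the highest peak of the domain, on the forward strand of mm10 with the match in capitals. The capitals read as the reverse complement of the match given for peak 17 above.
Peak 17, chr7:143466355-143466644, forward strand: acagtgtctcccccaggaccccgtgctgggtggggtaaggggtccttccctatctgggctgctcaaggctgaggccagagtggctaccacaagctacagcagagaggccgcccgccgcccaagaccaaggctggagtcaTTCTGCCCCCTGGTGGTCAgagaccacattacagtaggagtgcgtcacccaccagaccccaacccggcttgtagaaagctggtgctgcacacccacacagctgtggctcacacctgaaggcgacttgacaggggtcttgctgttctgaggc
Its GC content over 301 bp round the summit was 61.5%. That of the window peaks had a median of 56.0%, against 47.8% over all optimal peaks, while the median ratio of observed to expected CpG was 0.148 in the window and 0.221 over all optimal peaks.

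On the other side of Cdkn1c, peak 15 lay 13388 bp downstream of its nearest start, between Kcnq1 and Cdkn1c. It was one of the lowest peaks, at percentile 26.8, with ranks of 49038 in replicate 1 and 44321 in replicate 2 and a forward match scoring 11.6. Of the 3 lowest window peaks, peaks 7, 5 and 15, the first 2 lay at the promoters of Kcnq1 and Trpm5 and this one bordered the empty stretch.

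Slc22a18 encodes a membrane protein of the organic cation transporter family. Its body, chr7:143473736-143499334 on the forward strand, held peaks 19 and 20, both in introns and both with forward matches. Peak 19 lay 1770 bp downstream of a start at percentile 41.6, with ranks of 37197 in replicate 1 and 46095 in replicate 2. Peak 20 had percentile 76.2 and ranks of 19221 in replicate 1 and 10718 in replicate 2. Peak 18, 3572 bp upstream of a start with a reverse match, was higher than either at percentile 90.4, and it ranked 6597 in replicate 1 and 6979 in replicate 2. The reverse matches of peaks 16, 17 and 18 and the forward matches of peaks 19 and 20 thus read away from each other, with the Slc22a18 starts between them.

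Phlda2 encodes a small pleckstrin homology domain protein that limits growth of the placenta and is expressed from the maternal copy. Its body, chr7:143501545-143503150 on the reverse strand, held no optimal summit. Peaks 21 and 22 lay 2905 bp and 3773 bp upstream, 868 bp apart, both with reverse matches and both in soft-masked sequence. Peak 21 had percentile 75.1 and ranks of 16596 in replicate 1 and 14182 in replicate 2. Peak 22, exceeded in the window by peaks 17 and 14, had percentile 92.7 and ranks of 5570 in replicate 1 and 4683 in replicate 2. Copies of a repeat can share reads, and how reads with several places were handled is not given in the sources used here.

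Nap1l4, a histone chaperone of the nucleosome assembly family, occupies chr7:143513579-143549106 on the reverse strand, beyond the right edge of the window. A summit at 143549412 lay 306 bp upstream of its start at percentile 16.1, with ranks of 72463 in replicate 1 and 43484 in replicate 2 and no motif match. A second summit, 143549613, had percentile 1.01, also without a match, and shares those ranks by overlap. The promoter peak was thus in the upper set of replicate 2 and outside that of replicate 1. A further summit, at 143544567 inside the body, had percentile 69.5 and ranks of 17701 in replicate 1 and 22479 in replicate 2. It was also the first peak beyond the window's right edge, by 33517 bp, while the first beyond the left edge was a Cd81 promoter peak 3226 bp outside, at percentile 39.0.

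Promoter peaks were about as frequent among the coding members as among coding genes in general. Of the 5 protein-coding members, 2 (Kcnq1 and Nap1l4) had an optimal summit within 1 kb of a start, against 39.4% of 21755 protein-coding genes. In the conservative list, and in the upper set of replicate 1 alone, Nap1l4 no longer had one, which left 1 member. Within 2500 bp the count was 3, with Slc22a18 added. The observed to expected CpG ratio within 500 bp of each gene's 5′ end was 0.882 for Cdkn1c, 0.873 for Nap1l4, 0.514 for Phlda2, 0.284 for Kcnq1 and 0.0892 for Slc22a18. Peak 6 lay at another Kcnq1 start, 888 bp from that gene's 5′ end, and over 301 bp round its summit the ratio was 0.654. Cdkn1c and Nap1l4 had nearly the same ratio, and of that pair Nap1l4 had a peak at its start.

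Trpm5, a cation channel of taste cells, is not a member, but 5 window peaks lie round it. All 5 were within 1 kb of one of its 8 annotated starts. Peak 4, 282 bp upstream of its 5′ end, was the highest at percentile 89.9, with ranks of 6291 in replicate 1 and 8062 in replicate 2. Peak 5, 480 bp away, was the peak at percentile 23.4 that replicate 2 lacked. Peaks 1, 2 and 3 lay in introns at percentiles 75.3, 86.0 and 76.3, and ranked 14881, 7860 and 16871 in replicate 1 and 16452, 11176 and 12497 in replicate 2. The short gene Tssc4 had its nearest summit, peak 1, at 3526 bp.

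The other annotated genes that start in the window were non-coding or unclassified transcripts, and none had an optimal summit within 1 kb of its start. Nearest among them were Gm28821, 1609 bp from peak 11, and Gm27901, 1682 bp from peak 15. In the empty stretch, Gm37364 and 4933417O13Rik had their nearest summits 143689 bp and 81298 bp away.

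Among 13 protein-coding neighbours of the domain, 5 had an optimal summit within 1 kb of a start, against 39.4% of all protein-coding genes. These were Ascl2, a transcription factor of placental stem cells, at percentile 36.0, the tetraspanin gene Cd81 at 39.0, Trpm5 at 89.9, Osbpl5 at 17.3 and Dhcr7, the last enzyme of cholesterol synthesis, at 97.6. The others, Tspan32, Tssc4, Cars, Nadsyn1, Th, Tnfrsf22, Tnfrsf23 and Tnfrsf26, had theirs between 1739 bp (Th) and 24158 bp (Tnfrsf22) away. Among 13 protein-coding paralogs of the members elsewhere in the genome, Kcnq5, Cdkn1a, Cdkn1b and Phlda1 had one, and the others did not, against the same 39.4%. Kcnq5, like Kcnq1 a long gene, had a longest peak-free stretch of 86.3% of 563.54 kb with 6 summits, while in Kcnq3 it was 37.3% of 300.256 kb with 5.

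In the optimal list, Kcnq1ot1 at 142540 bp was farther from a summit than any of 8 imprinted non-coding genes of other domains. Each distance is the shortest over a gene's annotated starts, of which Kcnq1ot1 has 1 and the 8 genes have 1 to 19. From 5′ ends alone, Meg3 was at 1179 bp and Mirg at 20413 bp, and Kcnq1ot1 was still the farthest. The 8 were not placed against the other lists, and in the upper set of replicate 2 alone the distance of Kcnq1ot1 was 13874 bp, less than that of Snhg14 in the optimal list. Airn, Peg13, Nespas and Meg3 had an optimal summit 3, 13, 20 and 88 bp upstream of a start, at percentiles 21.9, 61.2, 43.1 and 49.4. H19, whose nearby control region is a known CTCF insulator, had one 1124 bp upstream at percentile 53.7. Mirg, Rian and Snhg14 had theirs at 2213, 5192 and 32164 bp. A body without an optimal summit was not particular to Kcnq1ot1. H19, Mirg and Snhg14 also had none, Snhg14 over 667.836 kb against 93.092 kb in Kcnq1ot1. Airn, Meg3, Nespas, Rian and Peg13 had at least 1. The differences were not tested, since the list was chosen by name and each gene gives 1 value.

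**Figure D5:**
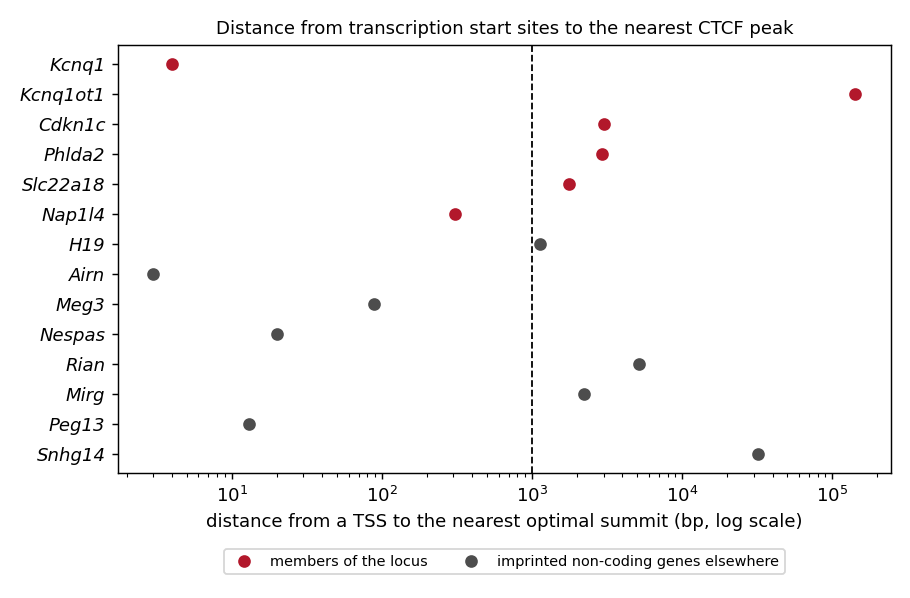
Distance from the nearest transcription start to the nearest optimal summit (log axis, bp) for the 6 members (red) and 8 imprinted non-coding genes elsewhere (grey), with the dashed line at 1 kb. Kcnq1 at 4 bp and Nap1l4 at 306 bp are the members inside 1 kb, and Kcnq1ot1 at 142540 bp is farthest in this list.

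Matches were found at window peaks of every height but the lowest. All 14 window peaks in the upper 50% by signal had a match, against 90.4% of such peaks on odd-numbered chromosomes. In the lower 50%, 7 of 8 window peaks had one, against 66.7%. The matrix had itself been learned from peaks of the upper 50%, on other chromosomes. By cluster, the left one had 6 forward and 7 reverse matches and the right one 3 forward and 5 reverse, so neither cluster read one way.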

How the data were processed

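CTCF ChIP-seq was done on 2 libraries of newborn kidney, which form 1 group. The submitters deposited 5 peak lists on mm10: one per library, one of both libraries pooled, and the optimal and conservative lists thresholded by IDR (irreproducible discovery rate). Per the file notes, each deposited peak carries a signal value, a −log10 q-value and a summit offset in bases. The −log10 q-value was not analysed, and the deposited signal was used only to rank peaks within a list. For the aligner, peak caller, thresholds and use of controls: not given in the sources used here.

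Peaks were placed on GENCODE M21 genes and GRCm38.p6 sequence, the same assembly as mm10, and all peak and gene ends lay within its chromosomes. Ranks came from the highest listed peak that overlapped by at least 1 bp. A 19 bp matrix, started from the known core of the CTCF motif, was learned on even-numbered chromosomes except 18, with control windows 2000 bp from each summit, and was tested on motifs planted in made-up sequence. Promoter means within 1 kb of an annotated start (TSS). RefSeq promoter entries were found for 3 of the 6 members (Kcnq1ot1, Slc22a18 and Phlda2). The sequence of 1 motif match is not reported here. Chromosomes 1 to 19 and X held 65470 of the 65482 optimal peaks and gave the background values.

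With 1 group there was no contrast to test, so values are described beside the same over all peaks or genes. The members and lists were chosen with earlier results of these data known. All 6 members and all 22 window peaks were named, with fixed lists of neighbours, paralogs and imprinted non-coding genes and the 3 genes most like Kcnq1 in summits per 100 kb. Every deposited column of values belonged to these libraries, so 0 columns were set aside. The alternatives were the conservative list, either library alone, other overlap and distance rules, and other motif settings. Python 3.11.15 with numpy 2.4.6, pandas 2.3.3, scipy 1.17.1 and matplotlib 3.10.9 was used.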

Additional observations from a re-analysis of the deposited data

How the results depend on the processing

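Of 40 values under other settings, 33 stayed within the spread between the libraries or within 1.5 times of a count, and 7 moved. For the distances, the median percentile and the peak-free share, that spread was the standard deviation of the 2 single-library values. Those values were thus judged by a limit they set themselves, and the limit widens where the libraries differ. With one library left out at a time, the nearest summit to the Kcnq1ot1 start lay between 13874 and 142546 bp away (142540 bp in the optimal list), the median percentile of window peaks was 54.7 to 74.2, the members with a promoter peak numbered 1 to 2, the Kcnq1 body held 10 to 14 peaks, the longest distance between window peaks was 156204 to 291920 bp and the longest peak-free share of the Kcnq1 body 48.7% to 85.1%. The conservative list gave 1 member with a promoter peak. It moved the nearest summit to 80430 bp and the longest distance to 222970 bp, both within the spread between libraries. The cause of these differences was not tested. The settings for the longest distance and the peak-free share were chosen after seeing the data. The number of window peaks (20 to 30), of peaks with a motif match (16 to 23), of forward matches (7 to 10) and of peaks in the upper set of both libraries (19 to 21) kept within 1.5 times of 22, 21, 9 and 21. No paired analysis was possible because the 2 libraries form a single group. With no read counts, depth cannot be weighed, and a place with no listed peak may hold binding below what the callers reported.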
